A study of Sus scrofa with 12 samples.

Results

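The probes described here are those that the array names IgM, IgG2a, IgJ, CD72, FcRN and FcRg, which are antibody chains, a B cell surface protein and Fc receptors. They were chosen by the name printed for each spot, and they are 6 of the 188 gene probes on the array, with 8 spots each. RNA came from blood mononuclear cells of Yorkshire boars that carried 1 of 3 genotypes of SLA-DRB1, which encodes a chain of a pig class II antigen-presenting molecule. The genotypes are 050502, 070701 and one that the labels call New, with 2 boars each, 6 boars in all. The labels give no age, and all cells were left untreated after separation on a density gradient. Each of the 12 spotted cDNA arrays carried RNA of 1 boar in red and of a boar of another genotype in green. Each genotype pair was covered by 2 hybridised pairs of animals, called A and B, and each hybridised pair was run on array 1 and again on array 2 with the dyes exchanged. Each boar met boars of both other genotypes, so the comparisons are not independent of each other, and the labels do not tell which hybridisations had a boar in common. The small number of arrays limits the precision of every value. The p-values rest on the spread between hybridised pairs A and B, pooled over the 3 genotype pairs and moderated over all probes. Each probe thus has 1 error for all 3 comparisons. One set of arrays stood apart. Across the 185 probes tested, the averaged ratios of pairs A and B of 050502 vs New correlated with r = -0.54, against 0.60 and 0.64 for the other genotype pairs. The arrays of the dye exchange of that pair A correlated with r = 0.19, while the other 5 exchanges had r of 0.66 to 0.85. The direction of its ratios is thus not settled, and means that rest on it are also given with it turned or left out. Its spread enters the error of all 3 comparisons, so it bears on every p-value. The p-values are as labelled unless the text says that this pair A was turned.

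B cells make antibodies from heavy and light chains and carry IgM on their surface before they switch to other classes such as IgG. The J chain links antibody units into polymers, and CD72 is a B cell surface protein that can dampen signals from the antigen receptor. Fc receptors bind the constant part of antibodies. The neonatal Fc receptor, FcRN, pairs with beta-2-microglobulin, binds IgG inside cells and returns it to the blood instead of letting it be degraded, and monocytes and macrophages are among the blood-derived cells that express it. Other Fc receptors on monocytes and natural killer cells trigger uptake or killing of antibody-coated targets.

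The array name CD72 matched the pig gene CD72 and FcRN matched FCGRT in the RefSeq table of assembly Sscrofa11.1, while the other 4 names had no match and are kept as the array gives them. FcRg can mean the common signalling gamma chain of Fc receptors or a receptor for IgG, and the name does not settle which. Antibody and Fc receptor genes have close relatives, so a probe may take up RNA from more than 1 of them. In unsorted mononuclear cells, fewer cells of a type and less RNA per cell cannot be told apart. The array also held 8 T cell marker probes and 6 monocyte and dendritic cell marker probes. These were detected in 21 to 24 of the 24 channels each, with CD3d in 22, TCRb in 24 and CD14 in 23. Over all gene probes 92.4% of probe and channel combinations were detected, so this cannot tell which cells were present. Only 2 of the 8 and 2 of the 6 were on average brighter than both negative controls, which are described below.

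A spot counted as detected when its median intensity exceeded the median local background by 2 background SDs, and a probe was detected in a channel when at least 50% of its spots were. Over all 188 gene probes, 92.4% of probe and channel combinations were detected, with 91.6% in channels of 050502, 97.6% in 070701 and 88.0% in New. IgG2a, IgJ, CD72, FcRN and FcRg were detected in 24 of 24 channels. IgM, the heavy chain of the first antibody class a B cell makes, was detected in 15 of 24, and 57.8% of its spots passed the limit. By genotype, IgM was detected in 4 of 8 channels of 050502, 5 of 8 of 070701 and 6 of 8 of New. In the 050502 vs New arrays, IgM was detected in 0 of 4 channels of 050502 and in 2 of 4 of New, whereas in the 050502 vs 070701 arrays it was detected in 4 of 4 channels of 050502 and in 2 of 4 of 070701. In the 070701 vs New arrays it was detected in 3 of 4 channels of 070701 and in 4 of 4 of New. The arrays of 050502 vs New also had the lowest detection over all gene probes. A mean of 84.8% of probes was detected in their channels of 050502 and 78.2% in those of New, and as few as 53.7% in 1 channel. In the other arrays the mean was 96.9% to 98.3% in each genotype. By channel, detection of IgM in 050502 vs New did not follow that of all probes. IgM was detected in New on array 1 of pairs A and B, in red, where 53.7% and 67.6% of probes were. It was not detected in New on array 2 of these pairs, in green, where 96.3% and 95.2% were. In 050502, where IgM was not detected, the shares were 91.5% and 96.3% on arrays 1 and 2 of pair A. In pair B they were 54.8% and 96.8%.

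Signal over local background gave the same picture of IgM. Its intensity was 1.46 to 12.8 times the local background, with a median of 3.31 over the 24 channels. The median was 10.9 for IgG2a, 7.54 for IgJ, 6.67 for CD72, 43.1 for FcRN and 16.7 for FcRg. The lowest value of FcRN was 12.6 times background, while IgG2a came down to 1.75 in 1 channel of 050502. Brightness of different probes also depends on the probe, so these values describe detection and not the amount of each RNA.

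**Figure D1:**
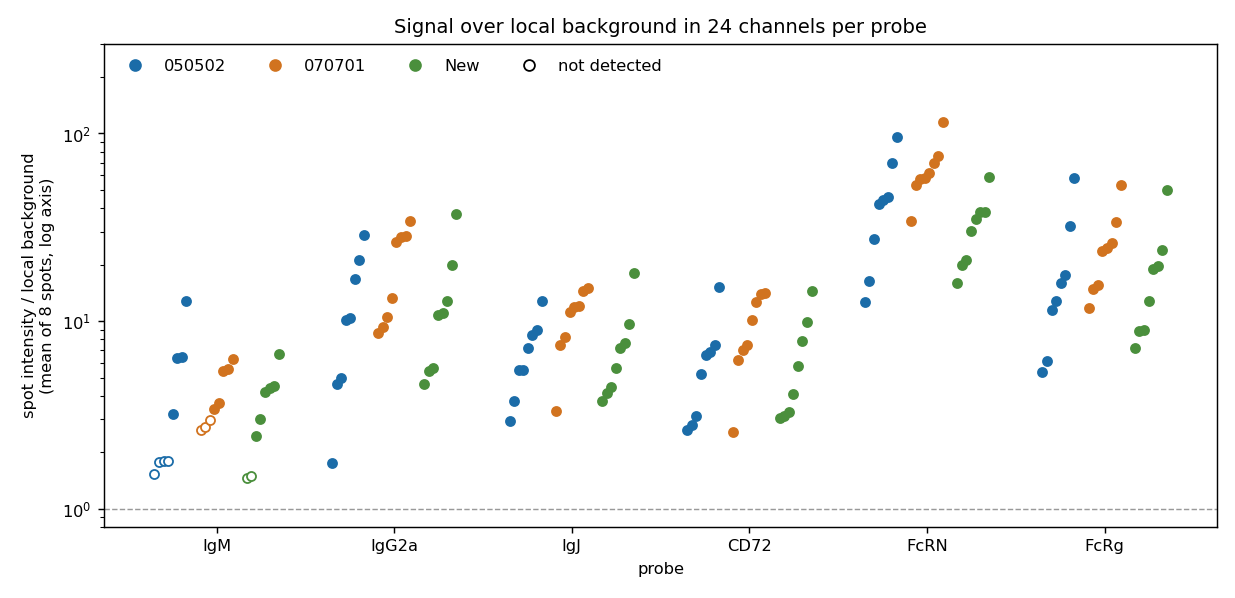
Intensity of each probe divided by its local background in the 24 channels (vertical log axis, mean of 8 spots), by genotype. Filled points are channels with detection and open points are channels without. IgM was not detected in 4 channels of 050502, 3 of 070701 and 2 of New, and the other 5 probes were detected in every channel.

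DNA of VapA, a bacterial gene, and of plasmid pACYC177 was spotted on the same arrays as negative controls, and it gave a stricter background. FcRN was brighter than VapA and than pACYC177 in 24 of 24 channels. IgG2a and FcRg were brighter than VapA in 24 channels and than pACYC177 in 23. IgJ was brighter than VapA in 21 channels and than pACYC177 in 0, CD72 in 12 and 2, and IgM in 7 and 3. Ratios of IgJ, CD72 and IgM thus came largely from signals no brighter than the plasmid DNA. No spot of the 6 probes was marked as not found, and the highest share of saturated pixels was 2%, in IgG2a.

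Channel intensity after normalization gave the level of each probe by genotype. FcRN had a log2 intensity of 12.73 ± 0.26 in 050502, 12.81 ± 0.29 in 070701 and 12.33 ± 0.34 in New (SD, n = 4 hybridised pairs, in which each boar may appear more than once). IgG2a was at 10.40 ± 0.36, 10.70 ± 0.19 and 10.99 ± 0.14 in the same order, FcRg at 11.25 ± 0.59, 11.23 ± 0.40 and 11.49 ± 0.46, and IgJ at 9.37 ± 0.29, 9.57 ± 0.15 and 9.64 ± 0.05. CD72 was at 9.15 ± 0.27, 9.24 ± 0.14 and 9.33 ± 0.57, and IgM at 8.52 ± 0.62, 8.09 ± 0.74 and 8.58 ± 0.41. For every probe the values of neighbouring genotypes in the order of levels overlapped. As labelled, the 4 values of IgG2a in New were all above the 4 in 050502, and this was the only full separation of 2 genotypes among the 6 probes. Pair A of 050502 vs New had 10.77 in 050502 and 10.90 in New, and with it turned the separation was lost. Without pair A of 050502 vs New, the levels of IgG2a were 10.27 ± 0.32 in 050502 and 11.03 ± 0.15 in New (SD, n = 3). Leaving out that pair changed the order for IgM, with 8.80 ± 0.30 in 050502 and 8.58 ± 0.50 in New, and put FcRN in 050502 at 12.85 ± 0.09, just above 070701. FcRg was then at 11.49 ± 0.41 in 050502 and 11.70 ± 0.23 in New, CD72 at 9.28 ± 0.10 and 9.57 ± 0.34, and IgJ at 9.34 ± 0.34 and 9.65 ± 0.06. The levels hold differences in brightness between arrays as well as between boars. The ratios, given next, set 2 genotypes against each other within an array. They too can differ between arrays made from the same RNA, most of all for IgM and CD72.

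**Figure D2:**
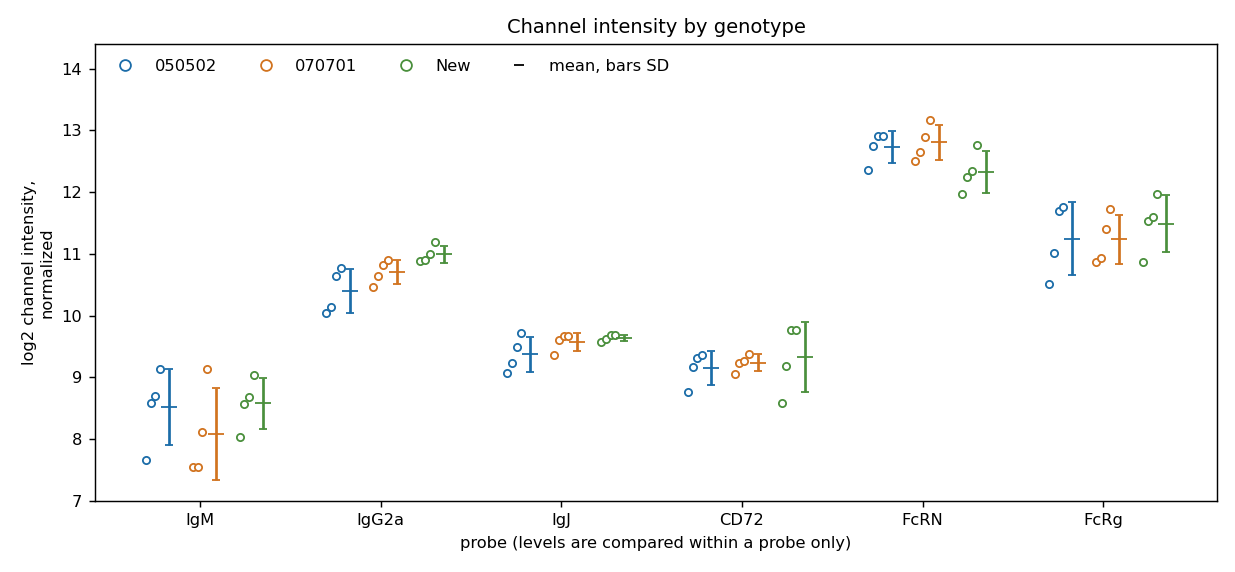
Normalized log2 channel intensity of each probe by genotype. Open points are the 4 hybridised pairs that hold the genotype, each the mean of 2 arrays, and bars show the mean and SD. The genotypes overlap for FcRN, FcRg, IgJ, CD72 and IgM. IgG2a in New lies above IgG2a in 050502 as labelled, but not with pair A of 050502 vs New turned.

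The comparison of 070701 with New held the largest difference relative to its error among the 6 probes. FcRN was 1.40-fold higher in 070701, and its adjusted p of 0.0858 missed the threshold of 0.05. With pair A of 050502 vs New turned, the adjusted p was 0.0785 in limma. FcRN passed with 1 value per genotype in the fit (adjusted p = 0.0323), which also draws on that pair A as labelled. It passed too with scan date as a random block (adjusted p = 0.0442), which counts the arrays of an exchange as replicates. Under these 2 settings 5 and 9 of the 185 probes passed, against 2 in the fit used for the other values. In that fit none of the 6 probes passed, against 1.08% of the 185 probes tested. The log2 ratios of FcRN, 070701 over New, were 0.69 and 0.40 on arrays 1 and 2 of pair A and 0.68 and 0.15 on those of pair B. All 4 arrays had more FcRN signal in 070701, and array 1 gave the higher ratio in both exchanges. The mean log2 ratio was 0.48 (SD 0.09, n = 2 hybridised pairs, 95% interval 0.29 to 0.67), with an unadjusted p of 0.00139 in limma. Only FcRN and FcRg among the 6 had an unadjusted p under 0.05, and 7.57% of all probes did.

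FcRg went the other way in that comparison. Its log2 ratios were -0.05 and -0.36 on the arrays of pair A and -0.55 and -0.76 on those of pair B. All 4 were below 0, and both arrays of pair B lay below both of pair A. The mean was -0.43 (SD 0.32, n = 2, 95% interval -0.75 to -0.11), with an unadjusted p of 0.0194 and an adjusted p of 0.399 in limma, and of 0.0396 with scan date as a random block. With pair A of 050502 vs New turned, the adjusted p of FcRg was 0.576 in limma. Leaving out pair A gave -0.66 and leaving out pair B gave -0.20.

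Among the antibody chains in the same comparison, IgM had log2 ratios of -1.04 and -0.08 on the arrays of pair A and -0.82 and -0.16 on those of pair B. The averaged pairs were close to each other at -0.56 and -0.49, although array 1 and array 2 of each exchange were far apart. The mean was -0.53 (SD 0.05, n = 2, 95% interval -1.23 to 0.17, adjusted p = 0.800 in limma). IgG2a, a heavy chain of the IgG class, had -0.52 and -0.32 in pair A and -0.28 and -0.11 in pair B, with a mean of -0.31 (SD 0.16, n = 2, adjusted p = 0.913 in limma). IgJ stayed between -0.07 and 0.04 on the 4 arrays and had a mean of -0.02, with an interval of -0.32 to 0.29. CD72 ranged from -0.53 to 0.06, with a mean of -0.26 (SD 0.18, n = 2, 95% interval -0.76 to 0.25, adjusted p = 0.881 in limma). Ratios were above 0 on all 4 arrays for 1 of the 6 probes, FcRN, and 15.1% of all probes did this. They were below 0 on all 4 for 3 of the 6, IgM, IgG2a and FcRg, against 14.6% of all probes, so that 4 of the 6 had 1 sign throughout, with 29.7% over all probes. The median of the 6 was -0.28 and that of all probes 0.006.

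**Figure D3:**
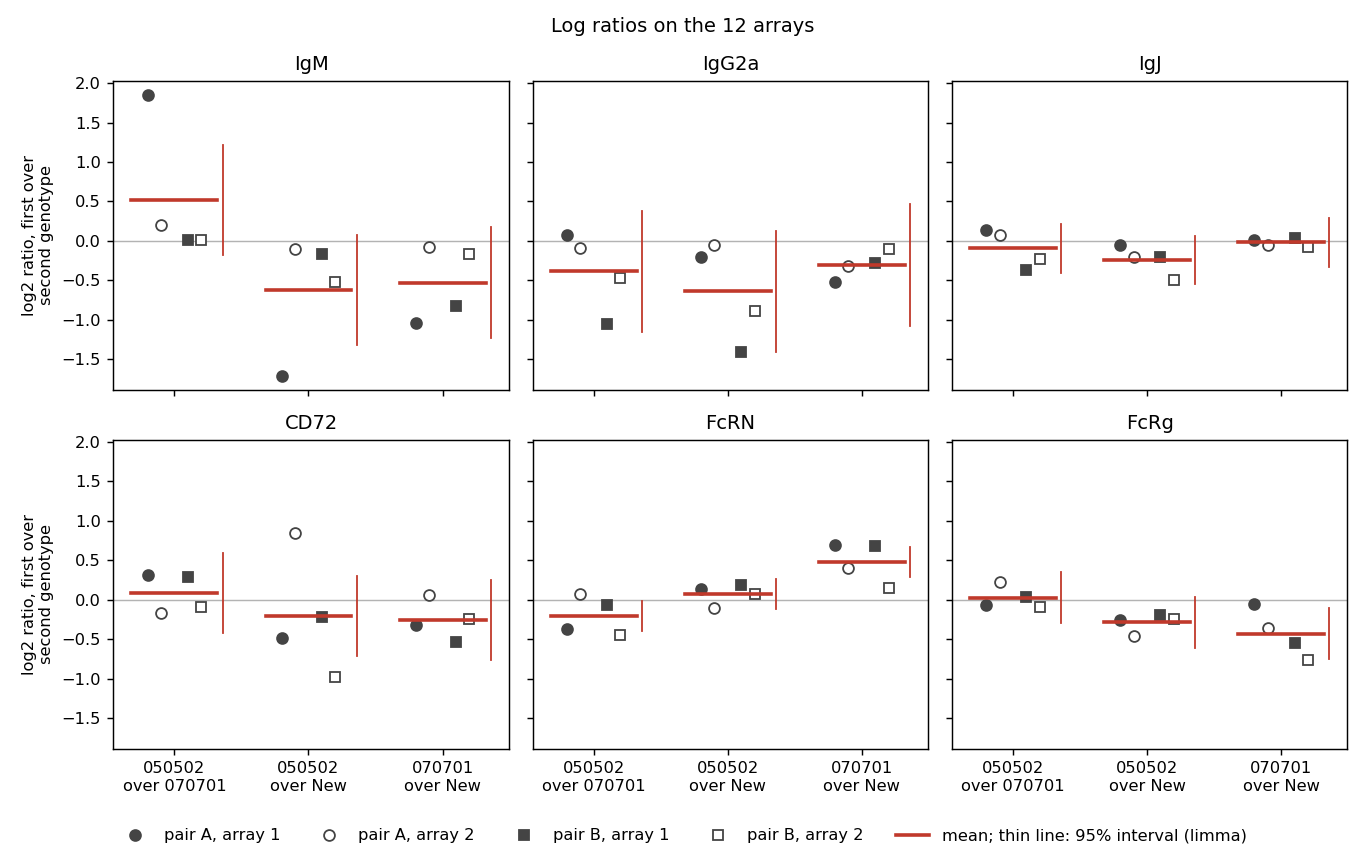
Log2 ratio of the first-named over the second genotype on each of the 12 arrays, for each probe. Circles are pair A and squares pair B, filled points array 1 and open points array 2 of a dye exchange, thick lines the mean and thin lines its 95% interval from limma. FcRN lies above 0 on the 4 arrays of 070701 over New, and IgM on array 1 of pair A stands away from the other arrays of 050502 over 070701.

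In 050502 against 070701, the 6 probes had small or uneven ratios. None passed, against 1.08% of all probes, and the median was -0.03, with -0.004 over all probes. IgM had log2 ratios of 1.85 and 0.20 on the arrays of pair A and 0.02 and 0.007 on those of pair B. Thus 1 array carried most of the mean of 0.52 (SD 0.72, n = 2, 95% interval -0.18 to 1.22, adjusted p = 0.642 in limma). Without pair A the log2 ratio of IgM was 0.01 and without pair B it was 1.02. IgM was the only 1 of the 6 with ratios above 0 on all 4 arrays, which 17.3% of probes had, and none of the 6 was below 0 on all 4, which 11.9% were. Either way, 29.2% of probes had 1 sign throughout.

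IgG2a differed between the hybridised pairs in that comparison. Pair A had log2 ratios of 0.07 and -0.09 and pair B had -1.05 and -0.47, so that only pair B showed less IgG2a signal in 050502. The mean was -0.38 (SD 0.53, n = 2, adjusted p = 0.699 in limma). FcRN had -0.37, 0.07, -0.07 and -0.44 on the 4 arrays in order, and its mean of -0.20 (SD 0.08, n = 2, 95% interval -0.39 to -0.01) had an unadjusted p of 0.041 and an adjusted p of 0.542 in limma. With pair A of 050502 vs New turned, this adjusted p was 0.327 in limma. As labelled, FcRN was the only 1 of the 6 with an unadjusted p under 0.05, and 8.11% of all probes were below that. The mean log2 ratios were -0.09 for IgJ, 0.08 for CD72 and 0.03 for FcRg, with 95% intervals of -0.40 to 0.22, -0.42 to 0.59 and -0.29 to 0.35 and adjusted p-values of 0.770, 0.863 and 0.962 in limma. For CD72 array 1 was above 0 and array 2 below 0 in both exchanges.

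For 050502 against New, each mean is given as labelled and again with the sign of pair A turned. None of the 6 probes passed either way in limma, against 0% of all probes as labelled and 2.16% with pair A turned. At an unadjusted p under 0.05, 0 of the 6 and 8.11% of all probes were called as labelled.

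IgG2a had log2 ratios of -0.20 and -0.06 on the arrays of pair A and -1.40 and -0.89 on those of pair B. Pair B, with less signal in 050502, was again the pair with the larger difference. The mean was -0.64 (SD 0.72, n = 2, adjusted p = 0.558 in limma) and -0.51 with pair A turned. FcRg, more even, had -0.26, -0.46, -0.19 and -0.24 on the 4 arrays, with a mean of -0.29 (SD 0.10, n = 2, 95% interval -0.61 to 0.04, adjusted p = 0.558 in limma), which became 0.07 with pair A turned. IgJ had a mean of -0.24, or -0.11 turned, and FcRN of 0.07, or 0.06 turned. CD72 had -0.48 and 0.84 on the arrays of pair A and -0.21 and -0.98 on those of pair B. Its mean was -0.21 (SD 0.55, n = 2, adjusted p = 0.647 in limma), and -0.39 turned (adjusted p = 0.209 in limma). As labelled, ratios were below 0 on all 4 arrays for IgM, IgG2a, IgJ and FcRg, 4 of the 6, against 4.86% of all probes, and above 0 on all 4 for 0 of the 6, against 4.32%, so that 9.19% of all probes had 1 sign throughout. With pair A turned, 0 of the 6 had 1 sign on all 4 arrays, and 20.5% of all probes did.

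IgM was not well above background in 050502 on any of those 4 arrays, and in New it was detected on 2 of 4, array 1 of each pair. New was in red on array 1 and in green on array 2 of both pairs. Array and dye thus cannot be told apart in this detection. The measured mean levels were 8.18 in 050502 and 8.80 in New on the log2 scale. On the other 2 arrays IgM was not detected in either genotype, although 3 of its 8 spots were detected in New on array 2 of pair B. The level in New exceeded the higher of the detection limit and the measured level in 050502 by 1.20 on the log2 scale on array 1 of pair A and by 0.16 on array 1 of pair B, so no fold is given for the 4 arrays together. The fit's adjusted p for IgM was 0.558, and its log2 ratios were -1.70, -0.10, -0.16 and -0.52. With pair A turned, IgM was detected on 1 of 4 arrays in each genotype and the mean log2 ratio was 0.28.

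IgM, IgG2a and FcRg were below 0 on all 8 arrays that held New, as labelled, and 3.78% of all probes were. With pair A of 050502 vs New turned, 0 of the 6 were, and 2.70% of all probes. Both comparisons used the New boars, so they are not separate evidence.

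The arrays of a dye exchange held the same RNA with the dyes swapped, so a gap between them mixes dye bias with other differences between arrays. Dye bias was taken as the mean red over green log2 ratio of both arrays. It ran from -0.48 to 0.82 for IgM and from -0.38 to 0.66 for CD72, and lay on both sides of 0 for each of the 6 probes. In IgM the arrays of an exchange differed by up to 1.65 on the log2 scale, the largest gap of any of the 185 probes, with a median gap of 0.81. The median gap over all probes was 0.17. IgM kept its sign in 6 of 6 exchanges, but its absolute log2 ratio averaged 0.93 on array 1 and 0.18 on array 2. Array 1 was also brighter for IgM in 5 of 6 exchanges, by 1.17 on the log2 scale on average, which ranked 9 of 185 by size and compared with a median shift of 0.27. IgM was detected in 8 of 12 channels on array 1 and 7 of 12 on array 2, and its median intensity relative to pACYC177 was 0.81 and 0.14.

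The 8 spots of IgM shared their sign on array 1 of both pairs of 070701 over New, and of pair A in the other comparisons, but they spread widely. On array 1 of pair A they lay between 1.30 and 2.42 for 050502 over 070701 and between -2.13 and -1.29 for 050502 over New. For 070701 over New they ran from -1.80 to -0.36 on array 1 of pair A and from -1.59 to -0.28 on array 1 of pair B. The SD between spots on these 4 arrays was 0.25 to 0.43, against 0.06 to 0.09 on array 2 of the same pairs. What set array 1 apart from array 2 was not tested.

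CD72 had the least steady sign, with arrays of the same sign in 2 of 6 exchanges, against 57.7% of exchanges over all probes. Its largest gap, 1.32, ranked 4 of 185. FcRN and FcRg kept their sign in 4 of 6 exchanges, with median gaps of 0.34 and 0.21, and both exchanges of 070701 vs New were among these. IgG2a kept its sign in 5 of 6 with a median gap of 0.19, and IgJ in 4 of 6 with 0.12. The SD between the spots of a probe on an array had a median of 0.06 for FcRN, 0.09 for FcRg, 0.15 for IgG2a, 0.19 for IgJ, 0.20 for CD72 and 0.21 for IgM, and 0.17 over all probes.

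**Figure D4:**
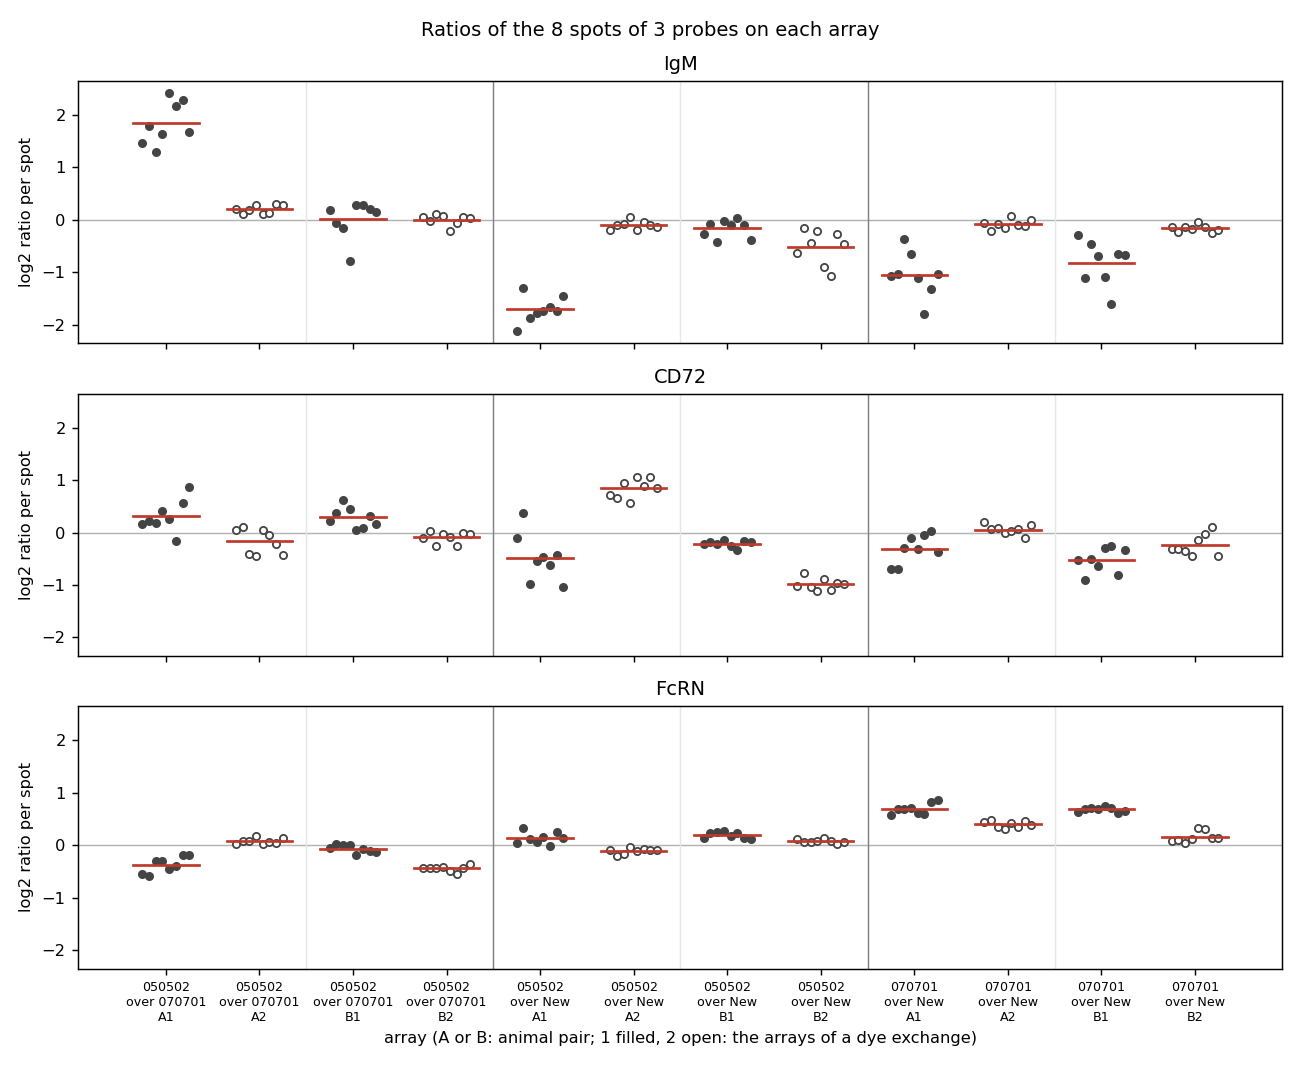
Log2 ratios of the 8 spots of IgM, CD72 and FcRN on each of the 12 arrays, first-named over second genotype, with the mean as a line. Filled points are array 1 and open points array 2 of a dye exchange. In pair A the spots of IgM reach 2.42 and -2.13 on array 1 and stay near 0 on array 2, while in pair B they reach -1.08 on array 2 of 050502 over New. The mean of CD72 keeps its sign between arrays in only 2 of 6 exchanges, and the spots of FcRN lie close together.

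Because the comparisons form a loop, 050502 over New can also be reached through 070701. For IgG2a the direct log2 ratio was -0.64 and the indirect sum -0.69, and for FcRg they were -0.29 and -0.40. CD72 had -0.21 and -0.17, and IgJ -0.24 and -0.11. For IgM they were -0.62 and -0.01, a gap of 0.61, and for FcRN 0.07 and 0.28, a gap of 0.21. The median absolute gap over all probes was 0.11. With pair A of 050502 vs New turned, the gap was -0.29 for IgM, -0.18 for IgG2a, 0.002 for IgJ, 0.22 for CD72, 0.22 for FcRN and -0.47 for FcRg.

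The ratios of IgG2a moved most like those of PPRL (r = 0.98), IgG1 (0.94) and GH (0.91) over the 6 averaged ratios. IgG1, another IgG heavy chain, had log2 ratios of -0.02 in pair A and -1.22 in pair B for 050502 over New, where IgG2a had -0.13 and -1.14. In 050502 over 070701 IgG1 had -0.07 and -0.41. IgG heavy chains are alike in sequence, so these probes may share RNA. IgJ moved most like GH (0.91), TAPA (0.88) and TBG (0.84), and among the 6 probes IgG2a and IgJ had r = 0.89. IgM was most like NFAT1 (0.96), MIF (0.91) and CD1a,b,d (0.87), and CD72 was most like FcgIIR (0.96), TGFb-2 (0.93) and TAP2 (0.93). FcRN was most like Casp1 (0.96), SDF-1 (0.95) and TCRd (0.91), and FcRg was most like SOD (0.90), CD5 (0.89) and Granzyme (0.88). FcRN and FcRg had r = -0.64 with each other. These values describe 6 ratios that share boars and arrays, and with pair A of 050502 vs New turned, 8 of the 18 probes named here remained among the 3 most alike, none of them for FcRN or FcRg.

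The array held 8 other antibody and Fc receptor probes. IgA, detected in 7 of 24 channels, was not tested, and of the 7 others, IgArp, IgG1, FcR2, FcRI, FcRgII, FcRgIII and FcgIIR, 0 passed in each comparison. FcRgIII had a log2 ratio of 0.15 for 070701 over New (SD 0.09, n = 2), and FcRgII had -0.15 (SD 0.04, n = 2). Their adjusted p-values in limma were 0.881 and 0.874. The Fc receptor partner list was made of MHC-I and of FcRI, FcRgII, FcRgIII and FcgIIR, which are among the 7 above. It had 0 of 5 passing in each comparison, where only MHC-I was not already counted. Its medians were -0.008, 0.06 and -0.10 for 050502 over 070701, 050502 over New and 070701 over New, and -0.14 for 050502 over New with pair A turned.

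Of 23 probes for class II molecules, B cell help and cytokines that act on B cells, 2 passed in 050502 against 070701, both higher in 050502, 0 passed in 050502 against New, and 2 passed in 070701 against New, both lower in 070701. In both cases they were MHC-DQ and MHC-DY, class II antigen-presenting molecules, and as labelled they made up all the passing probes of the array. The medians of the 23 were 0.02, 0.04 and -0.02. With pair A of 050502 vs New turned, 3, 1 and 2 of the 23 passed, and over all probes 2.16%, 2.16% and 1.08%. As labelled, none of 8 T cell probes and none of 6 monocyte and dendritic cell probes passed in any comparison in limma, and with pair A turned 1 of the latter, TLR2, passed in 050502 against New. The T cell medians were -0.14, 0.001 and 0.02, with 7 of 8 below 0 in 050502 over 070701, where 51.9% of all probes were. The monocyte and dendritic cell medians were 0.25, -0.06 and 0.07, with 5 of 6 above 0 in 050502 over 070701, where 48.1% of all probes were. With pair A turned, the medians in 050502 over New were 0.04 for the 23 probes, -0.02 for T cells and 0.15 for monocytes and dendritic cells. The part of cell makeup in the ratios of the 6 probes was not tested.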

How the data were processed

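The spot intensity values are the authors' deposited scanner output: scans at 635 and 532 nm were measured in GenePix Pro 6.0.1.25 without normalization, per the file headers. Per the labels' protocols, total RNA was amplified in 1 round and cDNA was labelled with Alexa dyes. The percent of saturated pixels per spot also comes from the deposited files, per the file headers. The authors' deposited value table holds log2 ratios of red over green, of which 100% lay within 0.001 of those recomputed from background-subtracted medians, so its scale and direction are known. Its column medians ran from -0.69 to 0.60, so it was not centred, and it served as an alternative only.

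Median foreground was corrected with normexp (offset 50) and normalized by loess in each array, with controls and spots marked as not found at weight 0. The mean of the 8 spots stood for a probe. Signs were set so that the first-named genotype is the numerator, and both arrays of an exchange, made from the same RNA, became 1 value. Of 188 gene probes, 185 were detected in a channel on at least 6 of 12 arrays and were tested with lmFit and eBayes of limma 3.58.1 in R 4.3.3, with 1 coefficient per genotype pair, 3 residual and 1.85 prior degrees of freedom, and two-sided p-values adjusted by Benjamini-Hochberg at 0.05. Levels per channel were scaled by Aquantile. The procedure was tested on simulated data. Depth over the 24 channels was a median spot intensity of 382 to 2078.5 against backgrounds of 96 to 359.5. Probes named beside the 6 were the 3 most alike by Pearson correlation, with other genes given by list. The choice to name IgG1, FcRgII, FcRgIII, TLR2, MHC-DQ, MHC-DY and the marker probes was made once their values were known. The 6 probes and the lists were chosen with earlier results of these data known, and array names were read into lists after the probe names were seen. The probe sequences and their species are not given in the sources used here.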

Additional observations from a re-analysis of the deposited data

Results flagged for a closer look

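IgM on array 1 of pair A, 050502 over 070701, had a log2 ratio of 1.85 and stood apart from the other 3 arrays of that comparison. Its gap to the nearest array made up 0.89 of the range, above Dixon's 95% critical value for 4 values. Of 36 sets of values tested, 1 was marked, and chance marks about 5% of sets of independent values. Arrays of an exchange are not independent of each other, so that share is only a rough guide. The array shares its RNA with array 2, where the log2 ratio was 0.20. All 8 spots were above 0 on both.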

How the results depend on the processing

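Of the 21 alternatives, 19 left 0 of the probes passing in each comparison, although the stricter filters on dim probes dropped IgM, and that on negative controls also IgJ and CD72. In 070701 vs New, 1 of the 6 passed with 1 value per genotype (FcRN, 0.41, adjusted p = 0.0323 in limma), where 5 of all 185 probes passed. With scan date as a random block, which counts the arrays of an exchange as replicates, 2 of the 6 passed, and 9 of all 185. They were FcRN (0.47, adjusted p = 0.0442) and FcRg (-0.44, adjusted p = 0.0396, both in limma). Over all alternatives, FcRN in 070701 vs New kept its direction, from 0.23 with the deposited values to 0.69 with array 1 only, with adjusted p from 0.0323 to 0.999. With the letter of the hybridised pair as a replicate block, FcRN stayed at 0.48 (adjusted p = 0.0869), and 2, 0 and 3 probes of the array passed, against 2, 0 and 2. The differences between A and B correlated across the 3 comparisons with r of 0.43 to 0.62, but the labels do not say that letters mark shared boars. Directions turned as follows. For 050502 over 070701, CD72 was -0.13 with array 2 only, FcRg was -0.010 with array 1 only, and leaving out 1 hybridised pair gave IgJ -0.29 to 0.11 and FcRg -0.0253 to 0.0840. For 050502 over New, CD72 ran from -0.60 to 0.18 without 1 pair. FcRN was -0.10 with median centring, -0.19 with the deposited values and -0.0161 with array 2 only. With pair A turned, IgM was 0.28 and FcRg 0.0738. For 070701 over New, IgJ was 0.0226 with median centring, 0.00809 with the deposited values and 0.0268 with array 1 only. The cause was not tested. Scan dates numbered 5, and the only one with more than 1 genotype pair held FcRN at -0.15 for 050502 over 070701 and 0.42 for 070701 over New. A slide block was not run, since the headers used here name no slide. Low signal limits IgM, IgJ and CD72.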
